A study of Homo sapiens with 4 samples.

Results

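The genes described here are the transcriptional co-activators YAP1 and WWTR1, the latter known as TAZ, and 7 genes widely used as read-outs of their activity, CTGF, CYR61, ANKRD1, AMOTL2, AJUBA, LATS2 and AXL. These 9 genes were selected by name, with no threshold on their values, and each had 1 row among the 58735 genes of the RNA-seq table. They were chosen with earlier results of these data known. The table held 4 libraries described as wild-type colorectal cancer cells, 1 adherent and 1 spheroid library labelled with each of the lines HCT116 and LOVO. Adherent cells grew untreated in serum-containing medium. Spheroids grew on ultralow attachment dishes in serum-free medium with EGF and bFGF, and with oxaliplatin at 1 μg/ml according to the methods of the study, whereas the sample labels state 1 mg/ml and no drug name. Attachment, basal medium, supplements, serum, growth factors and drug therefore differed together between spheroids and adherent cells, and their parts cannot be told apart. The study's methods do not give the seeding density and time of culture of the sequenced adherent cells, which may also have differed. There was 1 library per condition, so no value below carries a replicate error, and each interval covers the counting of reads only.

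YAP and TAZ are the effectors of the Hippo pathway. The kinases MST1 and MST2 (genes STK4 and STK3) activate LATS1 and LATS2, which phosphorylate YAP and TAZ and hold them in the cytoplasm. When the kinases are inactive, as in spread cells on a stiff, adhesive surface or in serum, YAP and TAZ enter the nucleus, bind the DNA-binding TEAD factors and switch on genes such as CTGF and CYR61. In the intestine YAP is known for its part in regeneration after injury and in colorectal tumours. Since the pathway acts largely through phosphorylation and location of the proteins, mRNA levels of YAP1 and WWTR1 do not measure their activity.

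Levels are the deposited FPKM values, in which the fragments counted on a gene are divided by its length in kilobases and by the library size in units of 1000000 fragments. The reads counted on genes ranged from 15483569 to 20429147 per library, and each FPKM value could be turned back into whole reads. All 9 genes were among the 14429 genes with a mean of at least 1 FPKM over the 4 libraries, which were the genes compared.

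The cell type named on the labels was checked against marker genes. All 8 colon epithelial markers (EPCAM, CDH1, KRT8, KRT18, KRT19, KRT20, CDX2 and VIL1) had more than 3 reads in both HCT116 libraries, where their summed level was 1753.9 and 1287.8 FPKM in adherent cells and spheroids. In the libraries labelled LOVO the sums were 327 and 187 FPKM, and 5 and 4 of the 8 markers exceeded 3 reads. The intestinal transcription factor CDX2 and the brush border protein VIL1 had 0 reads in both LOVO-labelled libraries, which allows up to 3 reads, but VIL1 was also near the floor in HCT116, with 6 and 11 reads. CDX2 had 323 and 216 reads in HCT116. In the LOVO-labelled libraries CDH1 (E-cadherin) had 13 and 1 reads and EPCAM 42 and 76 reads, against 4397 and 3356 EPCAM reads in the HCT116 libraries. The summed level of 6 fibroblast markers was 54.0 and 72.8 FPKM in the LOVO-labelled adherent cells and spheroids and 5.60 and 16.1 FPKM in HCT116 in the same order. LUM had 31.4 and 50.4 FPKM and DCN 10.4 and 9.97 FPKM in the LOVO-labelled libraries. Either gene had at most 1 read in an HCT116 library. COL3A1 (0.811 and 5.13 FPKM) and PDGFRB (1.57 and 1.17 FPKM) were also higher there, against at most 0.358 and 0.175 FPKM in HCT116. COL1A1 made up most of the HCT116 sums, with 5.51 and 15.5 FPKM in adherent cells and spheroids. In the LOVO-labelled cells COL1A1 had 9.89 and 6.10 FPKM, so among spheroids it was higher in HCT116. COL1A2 had at most 1 read in any library. The 3 endothelial markers summed to 0.254 and 0.753 FPKM in HCT116 and to 1.13 and 7.84 FPKM in the LOVO-labelled cells, and the 2 immune markers to at most 0.142 FPKM in any library. PECAM1 made up most of the 7.84 FPKM, with 992 reads in LOVO-labelled spheroids against 5 reads in LOVO-labelled adherent cells. CDH5 had 1.05 and 1.42 FPKM in the LOVO-labelled cells and at most 3 reads in HCT116. VWF went the other way, with 0.170 and 0.332 FPKM in HCT116 and 0.0376 and 0.0670 FPKM in the LOVO-labelled cells. The keratins KRT8 (189 and 81.6 FPKM) and KRT18 (122 and 98.8 FPKM) were well expressed in the LOVO-labelled adherent cells and spheroids. The other keratins of the list went the other way. KRT19 had 14.9 and 4.85 FPKM there, against 808 and 543 FPKM in HCT116. KRT20 had 1 and 2 reads there, against 35 and 231 reads in HCT116. The libraries labelled LOVO thus expressed KRT8, KRT18, LUM and DCN. They had no reads of CDX2 and few of CDH1, EPCAM and KRT20. Whether these libraries came from LOVO cells was not tested. They are called LOVO-labelled below, fold changes are given for each line on its own before any count or fit over both, and the part of this marker difference in the results was not tested.

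Promoter sequence is shown first for CTGF and ANKRD1, whose promoters carry repeated copies of GGAATG, the core of the element that TEAD factors bind. The promoter of CYR61 was also to be shown, but no window was matched for it. Whether these copies bear on the mRNA levels was not tested. The sequences are the 250 bases before the RefSeq transcription start (GRCh38.p14), 5′ to 3′ on the strand of the gene, with each GGAATG in capitals. The stretch of CTGF, listed in RefSeq as CCN2, is chr6:131951373-131951622 on the minus strand, and that of ANKRD1 is chr10:90921088-90921337 on the minus strand.
CTGF: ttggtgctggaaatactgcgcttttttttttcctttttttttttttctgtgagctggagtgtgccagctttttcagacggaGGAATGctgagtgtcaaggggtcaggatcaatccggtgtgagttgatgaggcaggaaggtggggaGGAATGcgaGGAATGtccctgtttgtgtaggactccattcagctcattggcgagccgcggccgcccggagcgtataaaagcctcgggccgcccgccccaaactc
ANKRD1: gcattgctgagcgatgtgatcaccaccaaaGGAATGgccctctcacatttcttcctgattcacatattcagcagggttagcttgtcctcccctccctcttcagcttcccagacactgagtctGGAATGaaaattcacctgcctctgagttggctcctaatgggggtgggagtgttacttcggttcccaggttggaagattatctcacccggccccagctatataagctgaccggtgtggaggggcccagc

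The CTGF promoter held 3 copies of GGAATG, whose first bases lie 169, 104 and 95 bases before the start, the last 2 of them separated by 3 bases. The ANKRD1 promoter held 2 copies, beginning 220 and 128 bases before its start. Windows from 250 bases before to 50 bases after a start were searched for GGAATG on both strands. Of 35116 such RefSeq windows, 14.0% held at least 1 copy, 1.37% at least 2 and 0.128% at least 3. Windows were matched for 8 of the 9 genes, all but CYR61, 12 windows in all, and 7 of these 8 genes had a copy in at least 1 window against 16.7% of the 27305 genes with a window. The single copies of the other 5 genes are shown with 10 bases on each side, because they differ in place and strand, and the capitals mark the match on the strand of the gene.
AMOTL2: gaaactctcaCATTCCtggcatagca
AJUBA: gaagttggctGGAATGaagccaaagc
LATS2: tgacgcccgtGGAATGccaacaatgt
AXL: gactttgcacCATTCCactccctccg
YAP1: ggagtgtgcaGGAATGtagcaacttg

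In AMOTL2 and AXL the element was on the opposite strand, so that it reads CATTCC here. The match of AMOTL2 is at chr3:134374511-134374516, that of AJUBA at chr14:22976896-22976901, that of LATS2 at chr13:21061572-21061577, that of AXL at chr19:41226543-41226548 and that of YAP1 at chr11:102110285-102110290. AMOTL2, AJUBA and AXL each had windows at 2 starts and the copy in 1 of them. In each of these genes it was the window of the downstream start, and that of the upstream start held 0 copies. The copy in LATS2 lies after the start, from base 10 to base 15. Neither window of WWTR1 held one. The AP-1 element TGANTCA was found once among the 8 genes, in ANKRD1, where it begins 195 bases before the start and overlaps no GGAATG, against 7.71% of all windows. The CArG box of the serum response factor SRF was in none of the 12 windows, against 1.29% of all windows. These matches describe letters in a window and no binding was measured.

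CTGF and CYR61 encode secreted matricellular proteins of the CCN family that bind integrins and growth factors, and they are the most widely used YAP targets. They were close to parallel in HCT116 and went apart in the LOVO-labelled cells. The FPKM of CTGF (ENSG00000118523, chr6:131948176-131951373 of GRCh38, minus strand) was 26.6 in HCT116 adherent cells, 5.55 in HCT116 spheroids, 5.98 in LOVO-labelled adherent cells and 0.255 in LOVO-labelled spheroids, from 1269, 218, 251 and 12 reads. It was lower in the spheroids of each line, and the adherent LOVO-labelled cells were at the level of the HCT116 spheroids. The plain log2 ratio of FPKM, spheroids over adherent cells, was -2.26 in HCT116 (95% exact Clopper-Pearson counting interval from -2.48 to -2.05), a level 4.80-fold lower. In LOVO-labelled spheroids the log2 ratio was -4.55 (counting interval from -5.52 to -3.72), a level 23.5-fold lower that rests on 12 reads. In such bulk RNA, fewer cells that express a gene and less of its RNA per cell cannot be told apart.

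The FPKM of CYR61 (ENSG00000142871, chr1:85580761-85583962, plus strand) was 43.4 in HCT116 adherent cells, 9.12 in the HCT116 spheroids, 109 in LOVO-labelled adherent cells and 117 in LOVO-labelled spheroids. The HCT116 spheroids held the lowest level, and both LOVO-labelled libraries lay above both HCT116 libraries. Its log2 ratio was -2.25 in HCT116 (counting interval from -2.41 to -2.09), nearly that of CTGF. In the LOVO-labelled cells it was 0.11 (counting interval from 0.05 to 0.16), a level 1.08-fold higher in the spheroids. CYR61 stood 1.63 and 1.64 times above CTGF in adherent HCT116 cells and HCT116 spheroids. In the LOVO-labelled cells this quotient was 18.2 in adherent cells and 460 in spheroids.

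ANKRD1 encodes an ankyrin repeat protein of the nucleus and the sarcomere that acts as a transcriptional cofactor. Its FPKM (ENSG00000148677, chr10:90912096-90921276, minus strand) was the lowest of the 9 genes in every library, at 2.06 in HCT116 adherent cells, 1.02 in the HCT116 spheroids, 1.32 in LOVO-labelled adherent cells and 0.126 in LOVO-labelled spheroids, from 83, 34, 47 and 5 reads. Both spheroid libraries were below the adherent library of their line. The log2 ratio was -1.01 in HCT116 (counting interval from -1.63 to -0.42) and -3.40 in the LOVO-labelled cells (from -5.09 to -2.07), the wide intervals reflecting the few reads.

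AMOTL2, AJUBA and LATS2 are targets of YAP whose products act back on the pathway. The angiomotin-like protein AMOTL2 binds YAP at junctions, the LIM protein AJUBA binds LATS kinases, and LATS2 is itself a kinase of YAP and TAZ. All 3 genes were lower in both spheroid libraries than in the adherent library of the same line. The FPKM of AMOTL2 (ENSG00000114019, chr3:134355874-134375479, minus strand) was 29.9 in HCT116 adherent cells, 17.3 in the HCT116 spheroids, 54.9 in LOVO-labelled adherent cells and 8.11 in LOVO-labelled spheroids. That of AJUBA (ENSG00000129474, chr14:22971174-22982642, minus strand) was 13.2, 7.79, 73.4 and 8.45 in the same order. In AJUBA the spheroid libraries were thus close to each other, and both adherent libraries were above them, the LOVO-labelled one by far the most. The log2 ratio of AMOTL2 was -0.79 in HCT116 (counting interval from -0.87 to -0.71) and -2.76 in the LOVO-labelled cells (from -2.86 to -2.66). The log2 ratio of AJUBA was -0.76 (from -0.89 to -0.64) and -3.12 (from -3.22 to -3.03), the latter a level 8.69-fold lower. LATS2 (ENSG00000150457, chr13:20973032-21061547, minus strand) had 11.0 FPKM in HCT116 adherent cells, 6.47 in the HCT116 spheroids, 13.3 in LOVO-labelled adherent cells and 4.78 in LOVO-labelled spheroids, with the adherent libraries above both spheroid libraries. Its log2 ratio was -0.77 in HCT116 (counting interval from -0.91 to -0.63) and -1.48 in the LOVO-labelled cells (from -1.62 to -1.33).

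AXL is a receptor tyrosine kinase activated by the ligand GAS6. Its FPKM (ENSG00000167601, chr19:41219203-41261766, plus strand) was 12.2 in HCT116 adherent cells, 4.90 in the HCT116 spheroids, 20.7 in LOVO-labelled adherent cells and 11.9 in LOVO-labelled spheroids. The spheroids were lower in each line, and the LOVO-labelled spheroids were at the level of adherent HCT116 cells. The log2 ratio was -1.32 in HCT116 (counting interval from -1.48 to -1.16) and -0.80 in the LOVO-labelled cells (from -0.90 to -0.69). AXL was the one gene other than CYR61 of the 7 targets with the larger decrease in HCT116.

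The co-activators themselves behaved unlike the targets. YAP1 (ENSG00000137693, chr11:102110461-102233423, plus strand) had 12.8 FPKM in HCT116 adherent cells, 21.3 in the HCT116 spheroids, 185 in LOVO-labelled adherent cells and 145 in LOVO-labelled spheroids, from 1648 to 20878 reads. Both LOVO-labelled libraries were far above both HCT116 libraries, and the spheroids were higher in one line and lower in the other. Its log2 ratio was 0.73 in HCT116 (counting interval from 0.64 to 0.82) and -0.35 in the LOVO-labelled cells (from -0.38 to -0.32). WWTR1 (ENSG00000018408, chr3:149517235-149736714, minus strand) was nearly level, with 8.81, 8.37, 8.54 and 8.24 FPKM in the same order. Its log2 ratio was -0.07 in HCT116 (counting interval from -0.18 to 0.04) and -0.05 in the LOVO-labelled cells (from -0.16 to 0.06), so that no change was detectable, and its sign changed with the scaling of the libraries. YAP1 was 1.46 and 2.54 times as abundant per length as WWTR1 in adherent HCT116 cells and HCT116 spheroids, and 21.7 and 17.6 times in the LOVO-labelled cells.

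**Figure D1:**
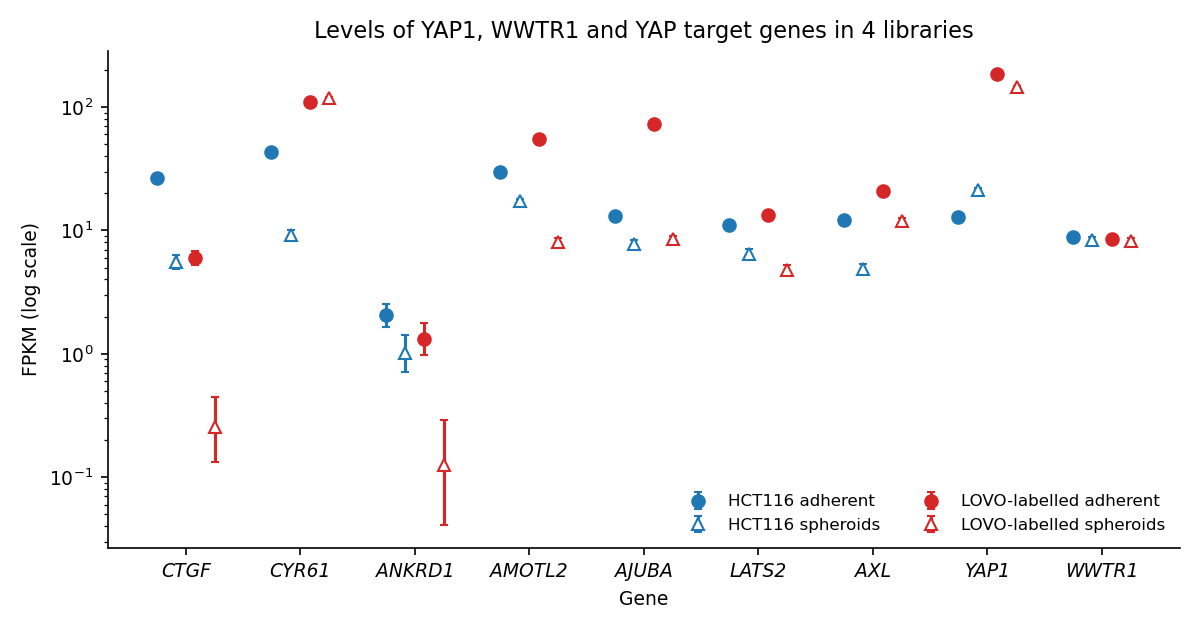
FPKM of the 9 genes in each library on a log axis, filled circles for adherent cells and open triangles for spheroids, blue for HCT116 and red for the LOVO-labelled cells. Bars are 95% exact Poisson counting intervals. The triangle lies below the circle of the same colour for all but YAP1 in HCT116 and CYR61 in the LOVO-labelled cells, with the WWTR1 symbols nearly level at 8.24 to 8.81 FPKM.

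When the 4 libraries were ordered by level for each gene, neighbours in that order that did not differ beyond counting error were few. For CTGF and ANKRD1, the neighbours within counting error were LOVO-labelled adherent cells and HCT116 spheroids, with log2 ratios of 0.11 (counting interval from -0.16 to 0.38) and 0.37 (from -0.29 to 1.05). For AJUBA they were the spheroid libraries (log2 ratio 0.12, interval from -0.02 to 0.25), and for AXL adherent HCT116 cells and LOVO-labelled spheroids (0.04, from -0.08 to 0.15). For WWTR1 all 3 neighbouring pairs were within counting error. Differences between cultures of one condition were not measured and may be larger than these intervals.

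**Figure D2:**
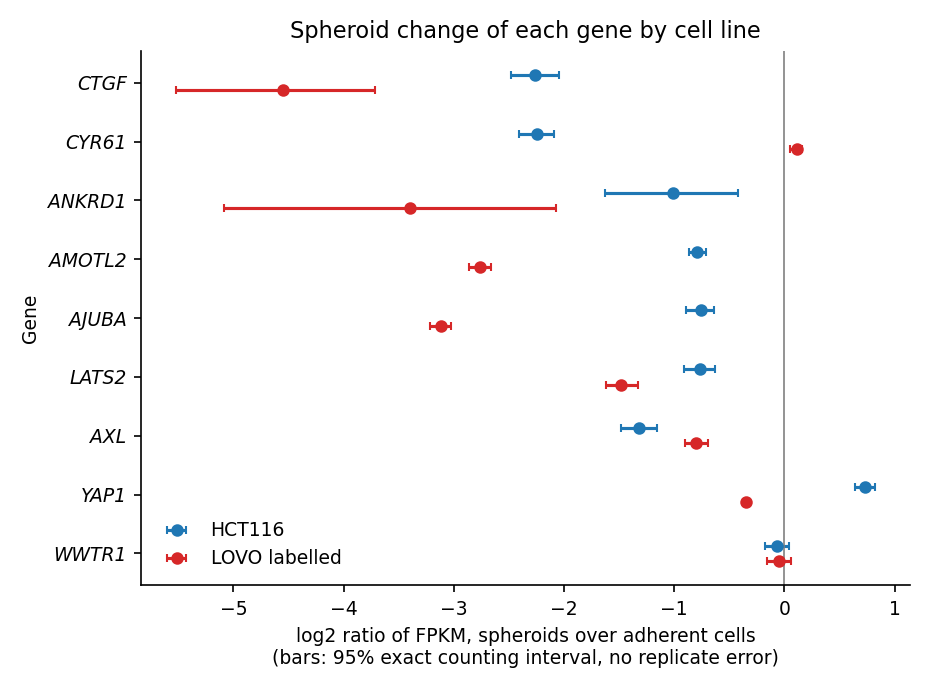
Log2 ratio of FPKM in spheroids over adherent cells for each gene, blue for HCT116 and red for the LOVO-labelled cells, with 95% exact counting intervals as bars. The intervals of the 7 target genes lie below 0 in HCT116, and 6 of the 7 lie below 0 in the LOVO-labelled cells, where that of CYR61 runs from 0.05 to 0.16.

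To set the genes against the rest of the transcriptome, differences of log2(FPKM + 1) were taken, a scale that shrinks the change of genes with low values. Because the genes were not chosen blind to these data, the shares of all genes given beside them are a description and not a test. In HCT116 spheroids 2 of the 9 genes, CTGF (-2.08) and CYR61 (-2.13), were past a log2 difference of 2 in the lower direction, as were 0.506% of the 14429 genes compared, and 0 of 9 were past it in the higher direction, as were 0.201%. With libraries scaled by reads on genes, CTGF was at -1.97 and CYR61 alone was past 2. At a log2 difference of 1, AXL (-1.17) joined them, which made 3 of 9 lower against 3.33% of all genes, and 0 of 9 higher against 2.19%. AMOTL2 was at -0.76, AJUBA and LATS2 at -0.69 and ANKRD1 at -0.60. The median over the 9 genes was -0.69 and that over all genes compared -0.03.

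In LOVO-labelled spheroids 3 of the 9 genes, AJUBA (-2.98), AMOTL2 (-2.62) and CTGF (-2.48), were below a log2 difference of -2, against 0.943% of all genes, and 0 of 9 were above 2, against 1.81%. At a log2 difference of 1, LATS2 (-1.31) and ANKRD1 (-1.05) joined them, so that 5 of 9 were lower against 7.85% of all genes, and 0 of 9 were higher against 8.57%. AXL was at -0.75. The median was -1.05 over the 9 genes and -0.06 over all genes compared. AJUBA ranked among the lowest genes of these spheroids, with 34 of the 14429 genes below it, and in HCT116 CYR61 had 50 and CTGF 59 genes below it.

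CTGF was the one of the 9 genes past a log2 difference of 1 in both lines, and 127 of all genes compared, 0.880%, were lower by that much in both. Below 0 in both lines were 7 of the 9 genes, WWTR1 with differences of -0.07 and -0.05 among them, against 35.1% of all genes.

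**Figure D3:**
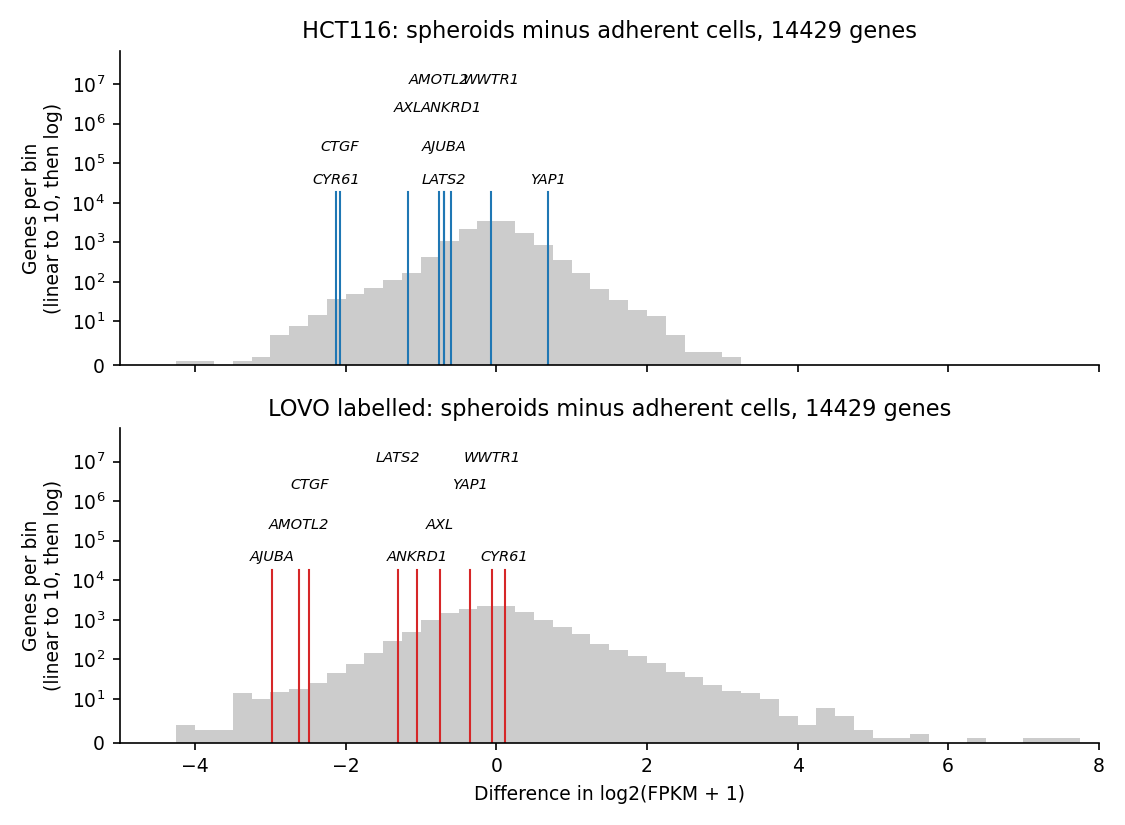
Distribution of the difference in log2(FPKM + 1) between spheroids and adherent cells over 14429 genes, in bins of 0.25, for HCT116 above and the LOVO-labelled cells below. Coloured lines mark the 9 genes, with CYR61 at -2.13 and CTGF at -2.08 as the lowest in HCT116 and AJUBA at -2.98 as the lowest in the LOVO-labelled cells.

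The lines were also compared with each other, a comparison that the marker genes above touch. Among adherent cells, AJUBA (2.39) and YAP1 (3.75) were past a log2 difference of 2 in the LOVO-labelled direction, 2 of 9 genes against 5.26% of all genes, and 0 of 9 were past it in the HCT116 direction, against 5.59%, although CTGF at -1.98 was at that limit. Among spheroids, CYR61 (3.55) and YAP1 (2.72) were higher in the LOVO-labelled cells by more than 2, 2 of 9 against 5.68% of all genes, and CTGF (-2.38) was lower by more than 2, 1 of 9 against 4.71%. Beyond counting error, CTGF and ANKRD1 were lower and CYR61, AXL and YAP1 higher in the LOVO-labelled cells in either growth form. AMOTL2 was higher in the LOVO-labelled cells when adherent (log2 ratio 0.88, counting interval from 0.82 to 0.94) and lower as spheroids (-1.09, from -1.20 to -0.98). LATS2 changed order likewise, with 0.27 (from 0.16 to 0.38) and -0.44 (from -0.61 to -0.27). The FPKM of the 7 target genes summed to 138 in HCT116 adherent cells, 52.1 in the HCT116 spheroids, 279 in LOVO-labelled adherent cells and 151 in LOVO-labelled spheroids, and CYR61 made up most of the last sum.

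How far the change in spheroids differed between the lines was expressed as the log2 ratio in the LOVO-labelled cells minus that in HCT116, with a Wald counting interval, for the 8 genes with at least 10 reads in every library. It was -2.29 for CTGF (interval from -3.15 to -1.43), -1.97 for AMOTL2 (from -2.10 to -1.84), -2.36 for AJUBA (from -2.51 to -2.20) and -0.71 for LATS2 (from -0.91 to -0.50), all larger decreases in the LOVO-labelled cells. It was 2.36 for CYR61 (from 2.19 to 2.52) and 0.52 for AXL (from 0.33 to 0.71), in the opposite direction. For YAP1 it was -1.08 (from -1.17 to -0.98), and for WWTR1 0.02 (from -0.13 to 0.18). With 1 library per condition these differences compare libraries, and whether the lines differ was not tested.

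A limma fit over all genes compared treated the HCT116 and LOVO-labelled cells as replicates of each growth form, with cell line as a covariate and 1 residual degree of freedom. It gave 0 of 14429 genes an adjusted p (Benjamini-Hochberg) under 0.05 and 1545 an unadjusted p under 0.05. No other tool was run. The fitted log2 difference of CTGF was -2.28 (standard error 0.26, limma adjusted p = 0.462), lower in spheroids in 2 of 2 lines. AJUBA had -1.83 (standard error 0.58) and AMOTL2 -1.69 (standard error 0.49), both with a limma adjusted p of 0.462. CYR61 had -1.01 (standard error 0.57, limma adjusted p = 0.506), YAP1 0.17 (standard error 0.34, limma adjusted p = 0.849) and WWTR1 -0.06 (standard error 0.24, limma adjusted p = 0.937). A change common to both lines was therefore not shown for any of the 9 genes by this test.

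A further list of 16 YAP and TAZ target genes, written down from general knowledge of published signatures, was read beside the 9 genes, and 15 of them had a mean of at least 1 FPKM. This list and the Hippo pathway list below were also chosen with earlier results of these data known. In HCT116, 1 of the 15 was below a log2 difference of -1 (GADD45A), against 3.33% of all genes, and 1 above 1 (IGFBP3), against 2.19%, counts of a single gene each, and the median was -0.04. In the LOVO-labelled cells, 7 of the 15 were below -1 (CCDC80, CRIM1, GADD45A, IGFBP3, MYOF, NUAK2 and PTPN14), against 7.85% of all genes, and 1 was above 1 (NT5E), against 8.57%, and the median was -0.97. Of these 15 genes, only the stress-response gene GADD45A was past 1 in the same direction in both lines, with 124 and 57.6 FPKM in adherent HCT116 cells and HCT116 spheroids and 19.3 and 4.78 FPKM in the LOVO-labelled cells. IGFBP3, a binding protein of insulin-like growth factors, had log2 differences of 1.24 and -2.51, the highest of the list in HCT116 and the lowest in the LOVO-labelled cells. NT5E, the ectonucleotidase CD73, was the highest in the LOVO-labelled cells, with a log2 difference of 1.41 there and -0.12 in HCT116. The 7 targets described above were thus lower in HCT116 spheroids while the median of the further list was near that of all genes.

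Of 24 genes of the Hippo pathway fixed in another list, LATS2 and AMOTL2 left out, 23 had a mean of at least 1 FPKM. The medians were 0.08 in HCT116 and -0.36 in the LOVO-labelled cells. In HCT116, TEAD4 was below a log2 difference of -1, 1 of 23 genes against 3.33% of all genes, and FAT4 above 1, 1 of 23 against 2.19%, both shares near those of all genes. In the LOVO-labelled cells TEAD1, TEAD4 and WWC2 were below -1, 3 of 23 against 7.85%, and 0 of 23 were above 1, against 8.57%. TEAD4, one of the DNA-binding partners of YAP, was the only gene of this list past 1 in both lines, with 18.1 and 7.65 FPKM in adherent HCT116 cells and HCT116 spheroids and 21.8 and 7.18 FPKM in the LOVO-labelled cells. TEAD1 was the lowest of the list in the LOVO-labelled cells, with 58.6 FPKM in adherent cells and 13.8 FPKM in spheroids, a log2 difference of -2.01 that dropped to less than 2 in size under 4 of the other scalings. The atypical cadherin FAT4 was the highest in HCT116, at 1.13. STK4, the gene of MST1, was the highest in the LOVO-labelled cells, at 0.47.

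**Figure D4:**
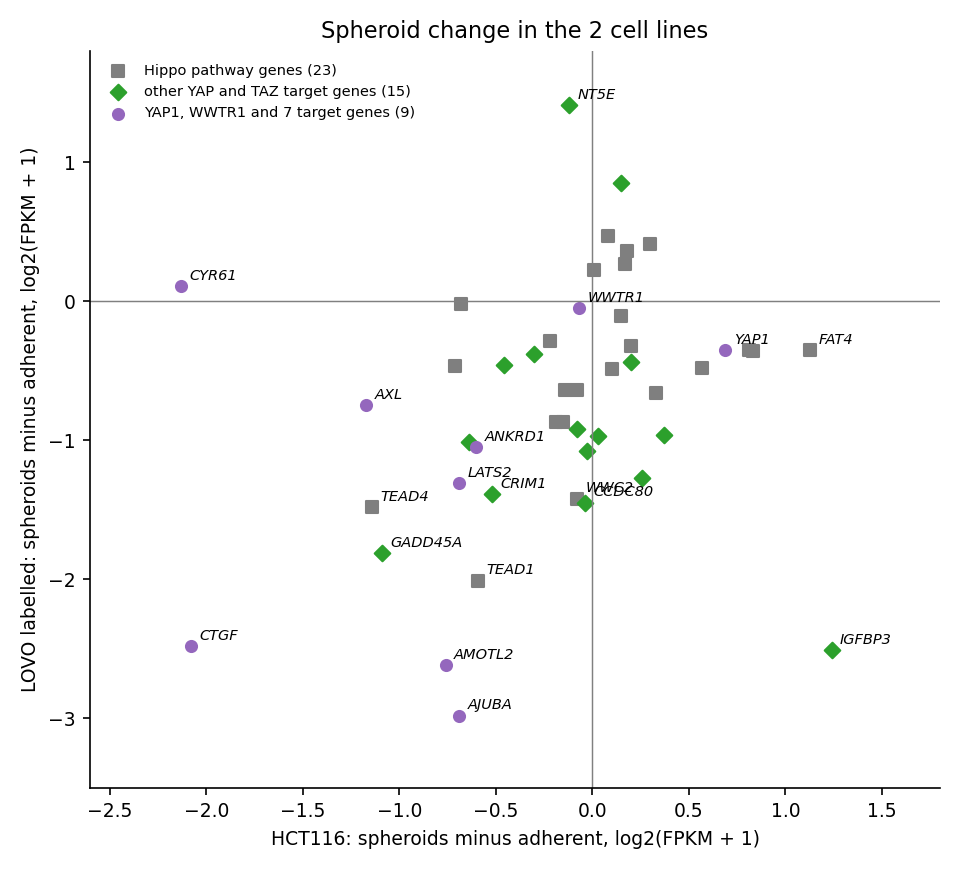
Difference in log2(FPKM + 1) between spheroids and adherent cells, HCT116 on the horizontal and the LOVO-labelled cells on the vertical axis, 1 point per gene with a mean of at least 1 FPKM. Purple circles are YAP1, WWTR1 and the 7 target genes, green diamonds 15 further YAP and TAZ targets and grey squares 23 Hippo pathway genes. CTGF lies at -2.08 and -2.48, and GADD45A and TEAD4 are the only other points below -1 on both axes.

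Relatives of the 9 genes did not all go with them. Among the CCN family, WISP2 had 0.167 and 0.179 FPKM in adherent HCT116 cells and HCT116 spheroids but 136 and 34.0 FPKM in the LOVO-labelled cells, so that in adherent LOVO-labelled cells it stood above CTGF and CYR61. NOV had 1.49, 1.94, 8.62 and 9.15 FPKM in the order of adherent and spheroid HCT116 and adherent and spheroid LOVO-labelled libraries, and WISP1 and WISP3 had means under 1 FPKM. ANKRD2, a relative of ANKRD1, had 10.4 FPKM in LOVO-labelled adherent cells and 0.343 FPKM in the spheroids, from 271 and 10 reads, and at most 13 reads in HCT116. LATS1, the partner kinase of LATS2, had 4.30 and 4.02 FPKM in HCT116 and 4.47 and 2.51 FPKM in the LOVO-labelled cells. AMOTL1 ranged from 5.84 to 10.7 FPKM over the 4 libraries with log2 differences of -0.22 and -0.29, and AMOT had 13 and 1 reads in the LOVO-labelled libraries against 501 and 473 in HCT116. The relatives of AJUBA were near level in HCT116 and lower in the LOVO-labelled spheroids, LIMD1 with log2 differences of -0.11 and -0.79 and WTIP with -0.01 and -0.68.

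Of the receptors related to AXL, TYRO3 had 3.94 and 3.74 FPKM in HCT116 and more in the LOVO-labelled cells (6.95 FPKM when adherent), with log2 differences of -0.06 and 0.18. MERTK had 6.42 and 5.32 FPKM in HCT116 and 0.0593 and 0.360 FPKM in the LOVO-labelled cells. The AXL ligand GAS6 had 14.8 and 7.70 FPKM in adherent HCT116 cells and HCT116 spheroids and 1.10 and 2.78 FPKM in the LOVO-labelled cells, so it was lower in the spheroids of one line and higher in those of the other. The ligand PROS1 was higher in both, with log2 differences of 0.69 and 0.46.

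The genes whose profile over the 4 libraries was most like that of CTGF, by Euclidean distance between log2(FPKM + 1) values centred on each gene's own mean, were AC005326.1 (distance 0.65), ASNS (1.10), ULBP1 (1.14), MT1E (1.16) and GADD45A (1.16). For CYR61 they were SHCBP1 (0.55), CDC45 (0.55), FEN1 (0.60), E2F1 (0.61) and GINS2 (0.64). With 4 libraries such likeness is a description.

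The exons of 3 of the 9 genes, CYR61, ANKRD1 and LATS2, share no base with exons of another gene in GENCODE 29. Whether counting used the strand is not given in the sources used here. CTGF and YAP1 overlap 195 and 628 exonic bases of a gene on the opposite strand that had 0 reads in all 4 libraries. WWTR1 overlaps 795 bases of WWTR1-AS1, which had from 1 to 19 reads, and AXL 67 bases of AC011510.1, which had from 6 to 13 reads. AMOTL2 shares 187 bases with the pseudogene RPL39P5 (from 2 to 4 reads) and AJUBA 50 bases with AL132780.3 (0 reads), both on its own strand. These counts are small beside the reads of the genes themselves, which numbered from 424 to 20878 for these 6 genes except CTGF.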

How the data were processed

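RNA from 4 libraries of HCT116 and LOVO-labelled cells, 1 per condition, was sequenced by the authors, who deposited 1 FPKM value per gene and library with gene length, coordinates and biotype. The aligner, counting tool and human build are not given in the sources used here. The submitters' processing notes name the mouse builds GRCm38 and mm10, whereas all 58735 gene identifiers were human and matched GENCODE 29 on GRCh38 in coordinates and strand. FPKM times gene length gave whole reads (tolerance 0.01) for 100% of values above 0, and the library sizes the authors used were 0.907 to 1.09 times the reads on genes, so the deposited values already carry a scaling. At these depths 3 reads, the floor used here, correspond to 0.147 to 0.179 FPKM for a gene of 1 kb.

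Genes with a mean of at least 1 FPKM were compared as differences of log2(FPKM + 1), counted past 2, the threshold stated in the study's methods, and past 1. Exact Clopper-Pearson, Poisson and Wald intervals (95%) used the recovered reads. Within a line there was no test. Limma 3.58.1 (R 4.3.3), with an eBayes trend and p-values adjusted by Benjamini-Hochberg, was fitted to all 4 libraries with cell line as covariate. Python 3.11.15, numpy 2.4.6, pandas 2.3.3, scipy 1.17.1 and matplotlib 3.10.9 were used, and the computations were tested on simulated data. Promoter windows (250 bases before to 50 after a start) came from RefSeq on GRCh38.p14, matched by symbol or synonym.

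The 9 genes and all lists were chosen with earlier results of these data known. Genes named beside the 9 were those of the further lists past a log2 difference of 1 in the same direction in both lines, the highest and lowest of each list in each line, all relatives with a mean of at least 1 FPKM, and the 5 nearest profiles of CTGF and of CYR61. Genes listed as past 1 in 1 line only, and relatives at lower levels, were named after their values were seen. Alternatives were pseudocounts of 0.1 and 0.01, TPM, TMM-style scaling, scaling by reads on genes, centring on the median of all genes, a threshold of 1 and a filter on mean FPKM, and, for limma, also a mean of at least 5 FPKM, no filter, protein-coding genes only and no covariate.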

Additional observations from a re-analysis of the deposited data

Results flagged for a closer look

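For some genes the spheroids moved in opposite directions in the lines, with the counting intervals of both log2 ratios on either side of 0. With 1 library per condition none of these differences was tested. As differences of log2(FPKM + 1) taken as spheroids less adherent, CYR61 was at -2.13 in HCT116 and 0.11 in the LOVO-labelled cells. YAP1 was at 0.69 in HCT116 and -0.35 in the LOVO-labelled cells. The latter lay between -0.35 and -0.13 over the alternative settings, a range wider than its counting interval. Among the further targets of YAP and TAZ past a log2 difference of 1 in either line, MYOF was at 0.26 and -1.27, IGFBP3 at 1.24 and -2.51 and NT5E at -0.12 and 1.41, in the same order. For NT5E in HCT116 the counting interval ran from -0.26 to -0.00 and so barely left out 0. Whether its sign there depends on the scaling was not examined. Of the Hippo pathway genes past a log2 difference of 1 in either line, FAT4 was at 1.13 and -0.35. The AXL ligand GAS6 was at -0.86 and 0.84.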

How the results depend on the processing

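Each log2 difference of the 9 genes in the 4 comparisons was recomputed under 6 alternatives. Of these 36 differences, 32 kept their sign under all 6, and the 4 that did not were those of WWTR1. Within the lines CTGF lay between -2.26 and -1.97 in HCT116 and between -4.50 and -2.34 in the LOVO-labelled cells. CYR61 lay between -2.25 and -2.02 and between 0.11 and 0.32, and YAP1 between 0.69 and 0.80 and between -0.35 and -0.13. TPM moved the median of all genes in LOVO-labelled spheroids from -0.06 to 0.10.

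Members past 2 and lower in HCT116 spheroids numbered 1 in place of 2 with scaling by reads on genes, where CTGF was at -1.97. Members lower in LOVO-labelled spheroids numbered 5 in place of 3 at a threshold of 1. Between adherent cells, members lower in the LOVO-labelled cells numbered 1 in place of 0 under both pseudocounts, TPM, TMM-style scaling, scaling by reads, centring and a threshold of 1. Between spheroids they numbered 2 in place of 1 under both pseudocounts and a threshold of 1. The median of the 9 genes in the LOVO-labelled cells was -1.46, -1.47 and -1.23 with pseudocounts of 0.1 and 0.01 and with TPM. Of the further targets at a threshold of 1, HCT116 had 1 lower and 1 higher in place of 0 and 0, and the LOVO-labelled cells 7 lower in place of 1 and 1 higher in place of 0, and 3 lower with a pseudocount of 0.01. Of the Hippo pathway genes at a threshold of 1, HCT116 had 1 lower and 1 higher in place of 0 and 0, and the LOVO-labelled cells 3 lower in place of 1. That last count was 2 with a pseudocount of 0.01 and 0 with TPM, TMM-style scaling, scaling by reads and centring. The causes were not tested beyond the construction of each setting. The limma fit gave 0 calls under each of its 7 alternatives, with 163 to 2431 genes at an unadjusted p under 0.05. The highest of these counts, 2431, was that with no filter, where 35734 genes were tested in place of 14429. The limma fit was paired by cell line, and the lowest of these counts, 163, was that without the cell line covariate. The labels give no replicate numbers, and with 1 library per condition none could be left out.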
